A study of Homo sapiens with 15 samples.

Results

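Transcripts of glutathione transferases and of NRF2 target genes were followed in the line NCI-H295R, which was grown from a human adrenocortical carcinoma, makes steroid hormones and is used to study aldosterone synthesis. The 10 genes were taken by name and family. No measured value entered the rule, but earlier results of these data were known when the genes were chosen. The genes were the alpha class transferases GSTA1, GSTA3 and GSTA4, the transferases GSTM3, GSTP1 and MGST1, and the NRF2 targets NQO1, GCLM, HMOX1 and TXNRD1. All 10 were among the 21493 genes counted, and 9 of them were among the 14368 genes with enough counts to be tested. RNA-Seq libraries came from cells transfected with the plasmid pcDNA3.T7 delta-NFAT3, which encodes ΔNFATC4, a constitutively active NFATC4 (3 libraries), or with the empty pcDNA3.T7 plasmid, called mock (4 libraries), with RNA taken 3 days after transfection. A further 4 libraries were labelled NFATC4-KO (numbered 1, 2, 3 and 5) and 4 were labelled control (numbered 1 to 4). The NFATC4-KO cells were grown from single cells after a cotransfection of Cas9 plasmids with a pair of guide RNAs against NFATC4, and control cells received the plasmids without guides. All groups share the parental line, and a label gives no culture, clone or day for any library, so the p values rest on how far these libraries scatter, which may be technical.

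Glutathione transferases join glutathione, a small thiol peptide, to electrophiles, and members of the alpha class also bind steroids and other hydrophobic ligands. NRF2, encoded by NFE2L2, is a transcription factor that the adaptor KEAP1 marks for degradation. When electrophiles or oxidants modify KEAP1, NRF2 accumulates, pairs with small MAF proteins and binds antioxidant response elements in genes for glutathione synthesis, thioredoxin reduction and quinone reduction. In the adrenal cortex, where cytochrome P450 enzymes leak electrons during steroid synthesis, these genes serve antioxidant defence. GSTA1 is abundant in steroid-producing cells, and GSTA3 is known in humans as an efficient steroid isomerase.

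The alpha class genes lie in a cluster on chromosome 6, minus strand, and their start regions are shown because GSTA1 and its neighbour GSTA2 moved together in the results while GSTA3 did not. GSTA2 spans chr6:52750087-52763475, GSTA1 chr6:52791371-52803860, GSTA3 chr6:52896639-52909698 and GSTA4 chr6:52977948-52995304 in the GENCODE release 44 annotation of GRCh38. The RefSeq windows on GRCh38.p14, from 250 bases before to 50 after the start, were chr6:52803767-52804066 for GSTA1, chr6:52763426-52763725 for GSTA2 and chr6:52909649-52909948 for GSTA3. They are written 5′ to 3′ on the minus strand. Capitals mark matches to GGAAAA, the core bound by NFAT proteins, to AGGTCA, the core bound by nuclear receptors such as SF-1, and to TGACNNNGC or TGAGNNNGC, cores of antioxidant response elements, each searched on both strands.
GSTA1: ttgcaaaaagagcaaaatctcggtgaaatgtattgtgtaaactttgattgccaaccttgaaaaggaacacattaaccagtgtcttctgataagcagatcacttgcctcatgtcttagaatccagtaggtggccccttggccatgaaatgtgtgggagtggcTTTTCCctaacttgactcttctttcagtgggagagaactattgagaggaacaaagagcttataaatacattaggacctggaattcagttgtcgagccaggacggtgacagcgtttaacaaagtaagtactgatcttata
GSTA2: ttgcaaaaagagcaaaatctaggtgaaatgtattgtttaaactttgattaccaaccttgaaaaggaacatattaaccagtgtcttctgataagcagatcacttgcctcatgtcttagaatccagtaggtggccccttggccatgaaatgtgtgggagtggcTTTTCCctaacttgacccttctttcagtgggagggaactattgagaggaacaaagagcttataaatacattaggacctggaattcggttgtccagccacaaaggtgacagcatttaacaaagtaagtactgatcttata
GSTA3: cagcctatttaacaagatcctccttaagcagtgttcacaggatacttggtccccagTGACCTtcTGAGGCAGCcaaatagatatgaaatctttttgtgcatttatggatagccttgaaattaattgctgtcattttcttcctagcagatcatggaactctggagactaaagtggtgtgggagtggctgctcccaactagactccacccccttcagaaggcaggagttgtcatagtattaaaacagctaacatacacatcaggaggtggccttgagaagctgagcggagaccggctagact
The GSTA1 and GSTA2 windows had 288 identical bases of 300, or 96.0%. Aligned with the GSTA3 window, GSTA1 reached 54.25% identity. Both GSTA1 and GSTA2 held TTTTCC, the opposite strand of GGAAAA, from position -89, and neither held a match to the other motifs. TXNRD1 also held TTTTCC, from -178, and its log2 fold change in ΔNFATC4 against mock cells was 0.00. GSTA4 and GSTM3, which fell by less than GSTA1, held no match to GGAAAA. GSTA3 held TGACCT, the opposite strand of AGGTCA, from -194 and TGAGGCAGC from -186. In GSTA4 the sequence TGACCTGGC from -9 matched TGACNNNGC and, in its first 6 bases, the opposite strand of AGGTCA, so these matches overlap. Of 35116 windows of this length, GGAAAA occurred in 24.046%, AGGTCA in 13.831% and either antioxidant response element core in 29.135%. A match is a run of letters, not a measured binding site. Whether any match bears on a change in transcript level was not tested.

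For GCLM, TXNRD1, GSTP1 and NQO1, stretches around 1 match each to an antioxidant response element core are shown. Each match is the first TGACNNNGC in the gene's first window. NQO1 held none there, so its first TGAGNNNGC is shown. These are matches by letters, and it was not measured whether NRF2 acts through them. Bases outside the windows were not searched. The stretches lie at chr1:93909438-93909482 (GCLM, minus strand), chr12:104215662-104215706 (TXNRD1, plus strand), chr11:67583728-67583772 (GSTP1, plus strand) and chr16:69726653-69726697 (NQO1, minus strand) on GRCh38.p14, from RefSeq. Each is written 5′ to 3′ on the gene's strand with the match in capitals.
GCLM: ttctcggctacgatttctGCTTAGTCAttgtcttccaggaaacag
TXNRD1: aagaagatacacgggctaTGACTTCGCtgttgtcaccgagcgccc
GSTP1: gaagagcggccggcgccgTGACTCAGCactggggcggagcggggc
NQO1: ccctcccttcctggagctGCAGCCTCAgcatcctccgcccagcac
The matches in GCLM and NQO1 are on the opposite strand, and those in TXNRD1 and GSTP1 on the same strand. GCLM, TXNRD1 and GSTP1 held further matches that are not shown, among them GCTTTGTCA from -102 in the second TXNRD1 window. Of the 9 members with a window, 8 held at least 1 core of either kind, and GSTA1 was the exception. MGST1 and TXNRD1 have more than 1 window, and a match in any was counted.

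The 15 libraries held 18.8 to 28.2 M counts (M, mega) each. Values are given as CPM, the counts of a gene per M of its library's total after TMM scaling. Markers of the adrenal cortex (NR5A1, STAR, CYP11A1, CYP17A1, HSD3B2 and MC2R) summed to 1007 to 2169 CPM in each library. Of 18 markers of fibroblasts, endothelium, leukocytes and adrenal medulla, 13 stayed under 1 CPM in every library, including all those of endothelium. Their sum was 50.1 to 56.5 CPM in ΔNFATC4 libraries and 22.8 to 28.3 CPM in mock libraries, mostly through COL3A1, at 38.2 ± 2.70 CPM in ΔNFATC4 cells and 12.1 ± 1.15 CPM in mock cells (SD, n = 3 and 4). Of the 6 markers tested 3 rose in ΔNFATC4 cells, where 7.53% of all genes tested rose, and their part in the results was not tested. NFATC4 itself measured 330, 359 and 342 CPM in ΔNFATC4 libraries and 91.3, 93.4, 106 and 87.5 CPM in mock libraries, and reads of the plasmid are included in that count. In libraries labelled NFATC4-KO it measured 92.6, 85.4, 57.5 and 53.6 CPM, against 114, 110, 44.8 and 54.0 CPM in libraries labelled control. The NFATC4 RNA level therefore did not separate the NFATC4-KO label from the control label, and these libraries are named by their labels. Within numbers 1 and 2 it was lower under NFATC4-KO, and within numbers 3, 4 and 5 the labels overlapped. The paper examines NFATC4 protein in control and NFATC4-KO cells by immunoblot, and RNA counts do not measure protein. It also reports that CYP11B2, the aldosterone synthase gene, was lower in NFATC4-KO cells by qPCR and RNA-Seq. In the paper, potassium and angiotensin II did not induce aldosterone production in those cells. The same 8 libraries fell into sets by number. Numbers 1 and 2 of both labels correlated with the mean mock profile at 0.987 to 0.990, and numbers 3, 4 and 5 at 0.954 to 0.961, across genes.

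Levels of different genes can be set side by side only per length. Per kilobase of merged annotated exons, the mean over the 15 libraries was 181 CPM for GSTA1, followed by TXNRD1 at 59.3, NQO1 at 51.6, GSTA3 at 46.3 and GSTA4 at 33.5 CPM per kilobase. GSTM3 (17.4), GCLM (15.9), HMOX1 (10.4) and MGST1 (10.3) were lower on that scale. MGST1 depended on the length used, with 83.2 CPM per kilobase of its MANE transcript, the representative transcript of a gene, and TXNRD1 with 103. GSTA2, the near copy of GSTA1, was at 4.58 CPM per kilobase, so GSTA1 carried nearly all reads of the pair. GSTP1, the pi class transferase, had 2 counts in all 15 libraries together, 1 in NFATC4-KO number 3 and 1 in control number 2. The other 13 libraries had 0 GSTP1 counts, which allows up to 0.108 to 0.158 CPM per library for counting error only (3 counts), and GSTP1 was not tested.

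The first comparison asked which of these transcripts changed when active NFATC4 was expressed. GSTA1 fell strongly, GSTA2 fell with it, and GSTM3 and GSTA4 fell by less, while GSTA3, MGST1 and all 4 NRF2 targets did not pass the test. Of the 9 members tested, 3 fell and 0 rose at an adjusted p under 0.05. Among all 14367 genes of this comparison 6.06% were called lower and 7.53% higher. The median log2 fold change of the 9 members was -0.03, and of all genes 0.00 to 2 decimals. Log2 fold changes and adjusted p values are from edgeR's quasi-likelihood test with Benjamini-Hochberg adjustment over all genes tested. In bulk libraries, fewer cells with a transcript and less transcript per cell cannot be told apart.

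**Figure D1:**
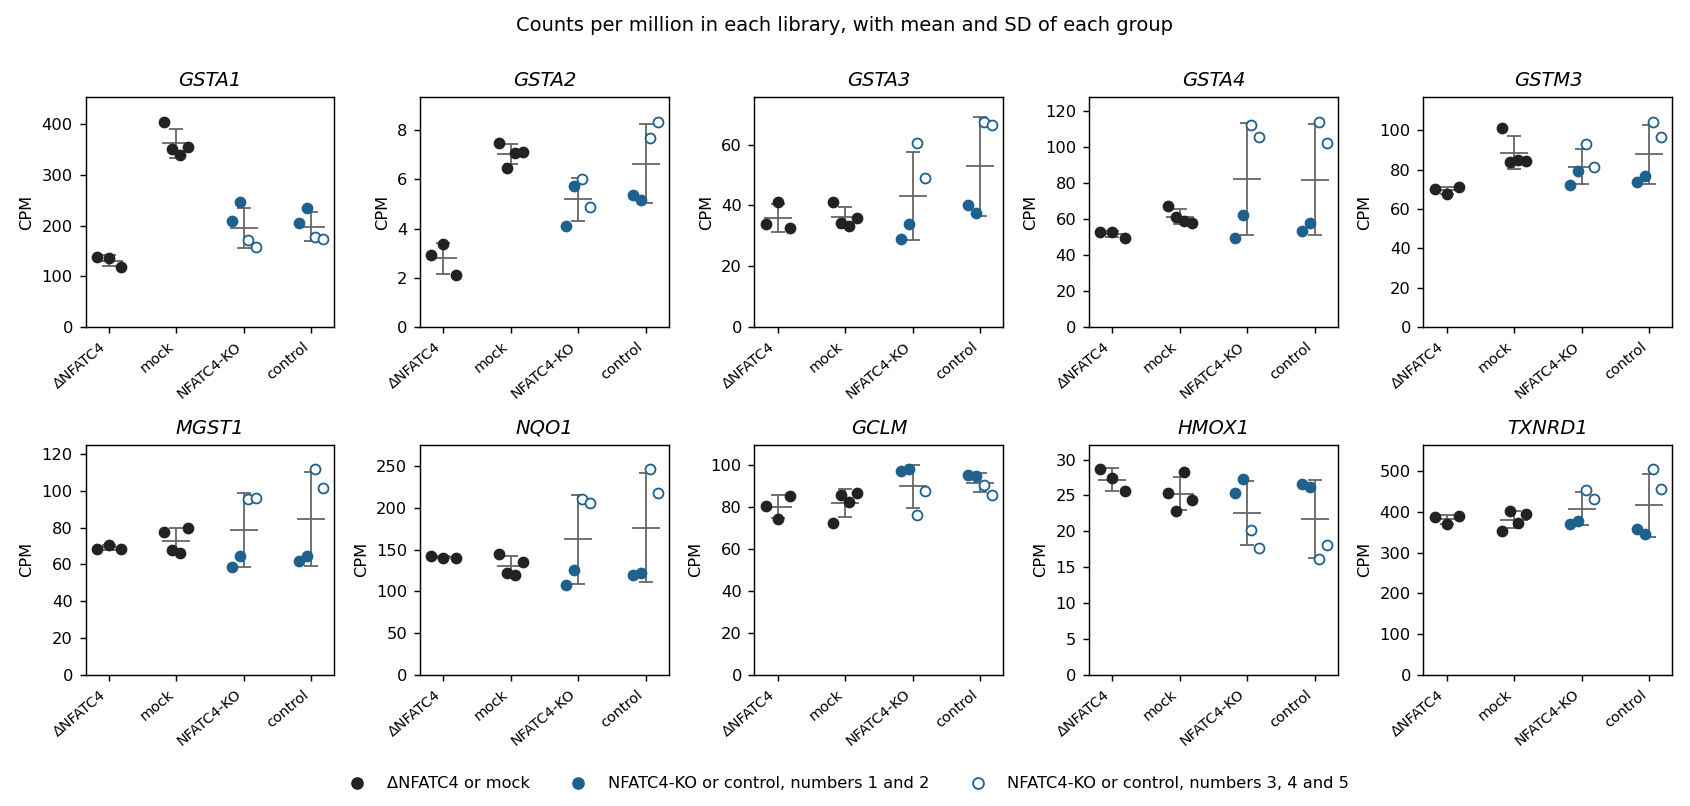
CPM of GSTA2 and of the 9 members tested in each library, 1 panel per gene, with a bar for each group's mean and whiskers for its SD. Open points are libraries labelled NFATC4-KO or control with numbers 3, 4 and 5. GSTA1 sits at 118 to 139 CPM in ΔNFATC4 libraries and at 338 to 404 CPM in mock libraries, and in most other panels the open and filled blue points lie apart.

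GSTA1 measured 139, 137 and 118 CPM in ΔNFATC4 libraries, against 404, 352, 338 and 354 CPM in mock libraries. The ranges were far apart, and the ΔNFATC4 libraries held the lowest 3 values and the mock libraries the highest 4 values of all 15. The log2 fold change was -1.47 ± 0.07 (SE, n = 3 and 4, adjusted p = 2.25e-11), which is 2.76-fold lower. An exact two-sided permutation test gave p = 0.057, the smallest that 3 against 4 libraries allow. GSTA1 passed in all 15 alternative fits, with log2 fold changes between -1.51 and -1.39 and an adjusted p of at most 7.86e-05.

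GSTA2 had few counts, 72, 78 and 40 in ΔNFATC4 libraries, against 172, 150, 150 and 198 in mock libraries. As CPM these were 2.91, 3.36 and 2.11 in ΔNFATC4 cells and 7.46, 6.47, 7.06 and 7.11 in mock cells. No ΔNFATC4 value reached the mock range. Its log2 fold change was -1.31 ± 0.15 (SE, n = 3 and 4, edgeR adjusted p = 2.96e-06). Of 1119 windows of 100 bases along the GSTA1 transcript, 110 (9.83%) also occur in GSTA2, so some reads could be credited to either gene and GSTA2 in particular is uncertain. The ratio of GSTA1 to GSTA2 CPM was 40.6 to 56.1 in ΔNFATC4 libraries and 47.9 to 54.4 in mock libraries, so the pair kept a similar ratio, and the ranges overlapped.

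GSTA3, the isomerase of the alpha class, did not follow. It measured 34.0, 41.2 and 32.5 CPM in ΔNFATC4 libraries, against 41.1, 34.3, 33.4 and 35.7 CPM in mock libraries, with ranges that nearly coincide. The log2 fold change was -0.01 (95% interval -0.20 to 0.18, edgeR adjusted p = 0.967). Within each library GSTA1 was 3.31 to 4.08 times GSTA3 in ΔNFATC4 cells and 9.84 to 10.3 times GSTA3 in mock cells, ratios that do not depend on the scaling of libraries.

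GSTA4, which conjugates the lipid peroxidation product hydroxynonenal, was at 52.7, 52.7 and 49.7 CPM in ΔNFATC4 libraries, against 67.4, 61.2, 58.8 and 57.8 CPM in mock libraries. The groups did not overlap, as for 24.2% of all genes tested. Its log2 fold change was -0.25 ± 0.07 (SE, n = 3 and 4, edgeR adjusted p = 0.0222). The call was lost without any 1 of the ΔNFATC4 libraries, with adjusted p between 0.0681 and 0.126, and in a fit of all 15 libraries at 0.821, and over all its alternatives the adjusted p ranged from 0.00938 to 0.821.

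GSTM3, a mu class transferase, measured 70.0, 67.7 and 71.1 CPM in ΔNFATC4 libraries, against 101, 83.7, 85.1 and 84.2 CPM in mock libraries. All ΔNFATC4 values lay below all mock values, of which replicate 1 was the highest. The log2 fold change was -0.35 ± 0.07 (SE, n = 3 and 4, edgeR adjusted p = 0.00239). The call was lost only in the fit of all 15 libraries, at an adjusted p of 0.142, and over the alternatives the adjusted p ranged from 6.91e-05 to 0.142. MGST1, a membrane-bound transferase, was at 68.5, 70.7 and 68.6 CPM in ΔNFATC4 libraries, inside the mock values of 77.4, 67.9, 66.0 and 79.9 CPM. It did not pass (log2 fold change -0.07, 95% interval -0.23 to 0.08, edgeR adjusted p = 0.589).

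None of the 4 NRF2 targets passed the test, and none passed at an unadjusted p under 0.05 either. NQO1, which reduces quinones by 2 electrons and is a common readout of NRF2, measured 143, 140 and 140 CPM in ΔNFATC4 libraries, against 145, 122, 120 and 136 CPM in mock libraries. Mock replicate 1 was above all ΔNFATC4 libraries and the other mock libraries were below them. The NQO1 log2 fold change was 0.11 (95% interval -0.03 to 0.25, edgeR adjusted p = 0.324), and without mock replicate 1 it was 0.17 with an adjusted p of 0.0375. With limma-voom and sample quality weights it was 0.15 with an adjusted p of 0.0486, and over all alternatives the adjusted p ranged from 0.0375 to 0.938.

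GCLM, the modifier subunit of the ligase that starts glutathione synthesis, measured 80.5, 74.2 and 85.1 CPM in ΔNFATC4 libraries, against 72.1, 85.8, 82.3 and 86.4 CPM in mock libraries. HMOX1, which opens the heme ring, was at 28.7, 27.4 and 25.6 CPM in ΔNFATC4 libraries, against 25.4, 22.9, 28.3 and 24.4 CPM in mock libraries. TXNRD1, the cytosolic thioredoxin reductase, was at 387, 370 and 389 CPM in ΔNFATC4 libraries, against 354, 403, 374 and 394 CPM in mock libraries. The groups overlapped for each of these genes. The 95% intervals of the log2 fold change were -0.18 to 0.12 for GCLM, -0.06 to 0.28 for HMOX1 and -0.12 to 0.12 for TXNRD1. These bound a change in either direction well inside the fall of GSTA1, whose interval was -1.62 to -1.31.

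**Figure D2:**
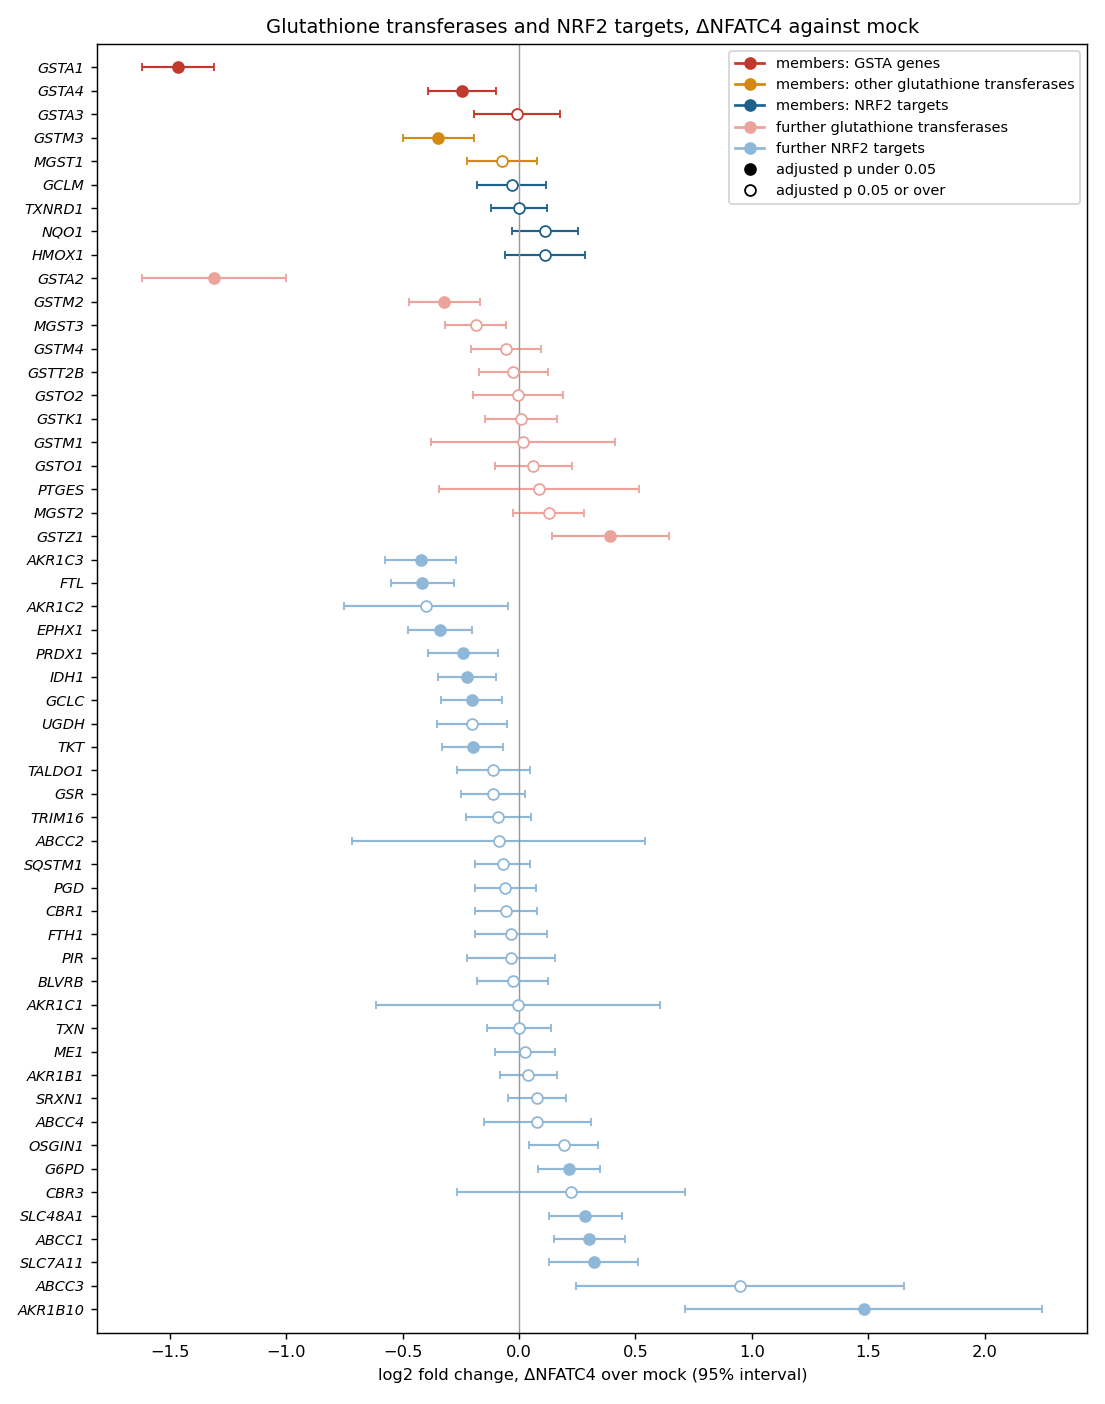
Log2 fold change of ΔNFATC4 over mock with its 95% interval for the 9 members tested, 12 further glutathione transferases and 33 further NRF2 targets, filled where the adjusted p was under 0.05. GSTA1 at -1.47 and GSTA2 at -1.31 lie far left of the other transferases, and the 4 NRF2 targets among the members lie at or beside 0.

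Among 12 further glutathione transferases tested, 1 rose and 2 fell, with a median log2 fold change of 0.00. Over all genes 7.53% were called higher and 6.06% lower. Beside GSTA2, GSTM2 of the mu class fell to 40.6 ± 2.81 CPM in ΔNFATC4 cells, against 50.8 ± 2.91 CPM in mock cells (SD, n = 3 and 4; log2 fold change -0.32, edgeR adjusted p = 0.00455). GSTM2 lost its call without ΔNFATC4 replicate 3. GSTZ1, which isomerizes maleylacetoacetate in tyrosine breakdown, rose to 8.92 ± 1.22 CPM in ΔNFATC4 cells, against 6.82 ± 0.70 CPM in mock cells (log2 fold change 0.39, edgeR adjusted p = 0.0332). That call was lost without either of ΔNFATC4 replicates 1 and 2 or any of mock replicates 2, 3 and 4.

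Of 33 further NRF2 targets tested, 5 rose and 7 fell, with a median log2 fold change of -0.04. The shares over all genes were 7.53% higher and 6.06% lower. FTL, the ferritin light chain, fell to 356 ± 18.4 CPM in ΔNFATC4 cells, against 475 ± 36.4 CPM in mock cells (SD, n = 3 and 4; log2 fold change -0.42, edgeR adjusted p = 0.000143). AKR1C3, a reductase of 17-ketosteroids, fell to 50.03 ± 1.59 CPM in ΔNFATC4 cells, against 67.1 ± 5.72 CPM in mock cells (log2 fold change -0.42, edgeR adjusted p = 0.000436). EPHX1, microsomal epoxide hydrolase, fell to 415 ± 13.2 CPM in ΔNFATC4 cells, against 525 ± 43.7 CPM in mock cells (log2 fold change -0.34, edgeR adjusted p = 0.00112). ABCC1, an exporter of glutathione conjugates, rose to 75.3 ± 5.81 CPM in ΔNFATC4 cells, against 61.1 ± 5.18 CPM in mock cells (log2 fold change 0.30, edgeR adjusted p = 0.00803). The list therefore moved in both directions. In the fit of all 15 libraries 0 of these 33 genes were called in either direction. With 1 library left out, 1 (without ΔNFATC4 replicate 2) to 7 were called higher and 3 (without ΔNFATC4 replicate 2 or 3) to 8 lower. ABCC1 lost its call without ΔNFATC4 replicate 2.

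Most regulators of the pathway did not pass the test. NFE2L2 was at 247 ± 8.42 CPM in ΔNFATC4 cells and 247 ± 7.46 CPM in mock cells (log2 fold change 0.00, 95% interval -0.12 to 0.12). KEAP1 was at 114 ± 1.32 CPM in ΔNFATC4 cells and 119 ± 4.83 CPM in mock cells (log2 fold change -0.06, 95% interval -0.18 to 0.06). Of 13 regulators tested, 1 was called lower and 0 higher, against 6.06% and 7.53% of all genes. It was NFE2L3, a relative of NFE2L2, with 12.3 to 13.4 CPM in ΔNFATC4 cells and 15.4 to 16.4 CPM in mock cells (log2 fold change -0.31, edgeR adjusted p = 0.016). That call was lost without ΔNFATC4 replicate 1 or 2.

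In the glutathione and thioredoxin systems, 2 of 27 genes tested rose and 4 fell, where 7.53% of all genes rose and 6.06% fell. GGT1, a membrane enzyme that cleaves extracellular glutathione, rose to 3.18 ± 0.23 CPM in ΔNFATC4 cells, against 1.68 ± 0.26 CPM in mock cells (SD, n = 3 and 4; log2 fold change 0.92, edgeR adjusted p = 0.00107). GSS, glutathione synthetase, had a log2 fold change of 0.27 (edgeR adjusted p = 0.0151). PRDX5, a peroxiredoxin, and GPX4, the peroxidase of membrane lipid peroxides, had log2 fold changes of -0.25 and -0.26 (edgeR adjusted p = 0.0102 and 0.011). GSS lost its call without ΔNFATC4 replicate 1 or 2 or mock replicate 3, GPX4 without ΔNFATC4 replicate 2 or 3, and PRDX5 without ΔNFATC4 replicate 3. With 1 library left out, 1 to 2 genes of this list were called higher, with 1 without ΔNFATC4 replicate 1 or 2 or mock replicate 3, and 1 to 5 lower, with 1 without ΔNFATC4 replicate 3 and 2 without ΔNFATC4 replicate 1 or 2 or mock replicate 3. In heme turnover, 1 of 8 genes was called, the iron exporter SLC40A1, at 6.88 ± 0.90 CPM in ΔNFATC4 cells and 9.85 ± 0.74 CPM in mock cells (log2 fold change -0.52, edgeR adjusted p = 0.00336).

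Since the alpha class transferases are linked to steroid synthesis, genes of adrenal identity and steroidogenesis were set beside them. Of 17 tested, 4 rose and 2 fell, against 7.53% and 6.06% of all genes. The list leaves out CYP11B2 and CYP11B1, which the paper reports as raised in ΔNFATC4 cells. NR5A1, which encodes SF-1, was at 381 ± 38.1 CPM in ΔNFATC4 cells and 381 ± 26.2 CPM in mock cells (log2 fold change 0.00 to 2 decimals, 95% interval -0.15 to 0.14). MC2R, the ACTH receptor, rose by 0.97 and HSD3B2, which makes ketosteroids, by 0.60 on the log2 scale (edgeR adjusted p = 1.66e-06 and 4.22e-05). CYP17A1, the 17-hydroxylase, fell by 0.46 and SULT2A1, a steroid sulfotransferase, fell by 0.27 on the log2 scale (edgeR adjusted p = 6.99e-05 and 0.0137), and SULT2A1 lost its call without ΔNFATC4 replicate 3. With 1 library left out, 2 (without ΔNFATC4 replicate 2) to 7 (without mock replicate 1) genes of this list were called higher, and 1 (without ΔNFATC4 replicate 3) to 2 lower. Of the genes named here from the further lists, GSTA2, GSTM2, GGT1, MC2R and HSD3B2 were also called in the fit of all 15 libraries and the others were not. The fall of GSTA1 thus stood beside adrenal genes that moved in both directions.

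The second comparison, NFATC4-KO against control, called 0 of the 9 members and 0 of all 14368 genes in either direction (0.0% each). At an unadjusted p under 0.05, 683 genes were higher and 606 lower in NFATC4-KO libraries, and 0 members were among them. DESeq2 called 70 genes higher and 96 lower, limma-voom 12 and 11, and a fit with replicate number blocked 44 (0.306%) and 95 (0.661%), in each case with 0 members. GSTA1 measured 209, 246, 173 and 157 CPM in NFATC4-KO libraries, against 206, 235, 177 and 174 CPM in control libraries, numbered 1, 2, 3 and 5 in NFATC4-KO and 1 to 4 in control. The groups coincided, with a log2 fold change of -0.02 and a 95% interval of -0.36 to 0.32.

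NQO1 measured 108, 126, 211 and 206 CPM in NFATC4-KO libraries, against 119, 122, 246 and 218 CPM in control libraries. Its log2 fold change was -0.12, with a wide interval of -0.85 to 0.62. Under both labels, numbers 1 and 2 were at 108 to 126 CPM and numbers 3, 4 and 5 at 206 to 246 CPM. GSTA4 had the widest interval of the members, -0.79 to 0.81. A change of more than 1.5-fold in either direction therefore lies inside the intervals of NQO1 and GSTA4, and the absence of a call does not show that they were unchanged.

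GSTA3 was the only member whose NFATC4-KO libraries lay on the same side of the control libraries in both sets. It measured 28.8 and 33.8 CPM in NFATC4-KO numbers 1 and 2, against 40.1 and 37.6 CPM in control numbers 1 and 2. In NFATC4-KO numbers 3 and 5 it measured 60.4 and 49.0 CPM, against 67.5 and 66.3 CPM in control numbers 3 and 4. Both NFATC4-KO values were below both control values in each set, as for 11.0% of all genes tested. On the log2 scale NFATC4-KO minus control was -0.31 in numbers 1 and 2 and -0.29 in numbers 3, 4 and 5. The main edgeR fit gave -0.30 ± 0.29 (SE, n = 4 and 4, adjusted p = 0.874), and an exact two-sided permutation test p = 0.4, where 4 against 4 libraries can reach 0.029. With the number set as a term in the fit the log2 fold change was -0.30 and the adjusted p 0.0146, and that fit called 4.09% of all genes higher and 5.69% lower in NFATC4-KO libraries. With the replicate block the adjusted p was 0.211, and over all its alternatives it ranged from 0.0146 to 0.978. The sets come from the data and not from the labels, so the call with the set term is given as 1 of the alternatives. No other member was called with the set term.

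**Figure D3:**
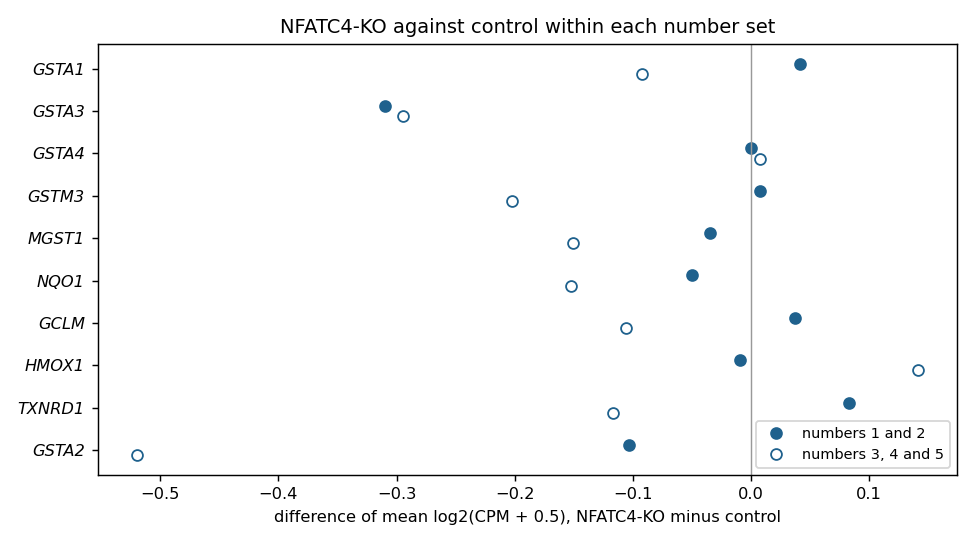
Difference of mean log2(CPM + 0.5), NFATC4-KO minus control, within numbers 1 and 2 (filled) and within numbers 3, 4 and 5 (open), for the 9 members tested and GSTA2. GSTA3 lies at -0.31 and -0.29, and GSTA4 lies within 0.01 of 0 in both sets.

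Differences between labels within sets were smaller for the other members, and TXNRD1 turned round between the sets. NFATC4-KO minus control for NQO1 was -0.05 in numbers 1 and 2 and -0.15 in numbers 3, 4 and 5 on the log2 scale. For GSTA1 it was 0.04 in numbers 1 and 2 and -0.09 in numbers 3, 4 and 5. GSTM3 and MGST1 were at 0.01 and -0.03 in numbers 1 and 2, and at -0.20 and -0.15 in numbers 3, 4 and 5. Of the further lists, 0 genes were called in NFATC4-KO against control in the main fit. NFE2L2 measured 225, 224, 252 and 239 CPM in NFATC4-KO libraries and 227, 229, 269 and 270 CPM in control libraries. KEAP1 measured 108, 107, 117 and 123 CPM in NFATC4-KO libraries and 115, 117, 99.2 and 113 CPM in control libraries. NR5A1 was at 324 to 347 CPM in NFATC4-KO libraries and at 340 to 505 CPM in control libraries, and was called with the number set as a term (log2 fold change -0.33, edgeR adjusted p = 0.00682).

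Fits that take the library numbers into account called genes of the further lists. With the replicate block, 3 of the 17 adrenal genes were lower in NFATC4-KO libraries, where 0.661% of all genes were. Among them were CYP17A1 (log2 fold change -0.66, edgeR adjusted p = 0.0022) and SULT2A1 (log2 fold change -0.39, edgeR adjusted p = 0.0281), and 0 genes of the other further lists were called. With the number set as a term, 7 adrenal genes were lower and 0 higher, where 5.69% of all genes were lower and 4.09% higher. Those named already were NR5A1, CYP17A1 (log2 fold change -0.74, edgeR adjusted p = 2.11e-05), SULT2A1 (-0.48, adjusted p = 0.000846), HSD3B2 (-0.44, adjusted p = 0.0123) and MC2R (-0.53, adjusted p = 0.0252). That fit also called 3 further transferases lower, 3 further NRF2 targets lower and 2 higher, 1 regulator lower, 1 gene of the glutathione and thioredoxin systems higher and 2 heme turnover genes higher. AKR1C3 and ABCC1 had log2 fold changes of -0.33 and -0.21 there (edgeR adjusted p = 0.0124 and 0.0216), and the regulator NFE2L3 -0.29 (edgeR adjusted p = 0.0307).

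The third comparison set numbers 1 and 2 of both labels (4 libraries) against numbers 3, 4 and 5 of both labels (4 libraries). It is a description with no test, because the sets were noticed in earlier results of these libraries. All 9 members tested differed without overlap, 3 higher and 6 lower in numbers 1 and 2, where 20.0% of all genes were higher and 17.3% lower without overlap. What the sets are is not given by the labels, and number, set and any shared handling cannot be told apart.

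**Figure D4:**
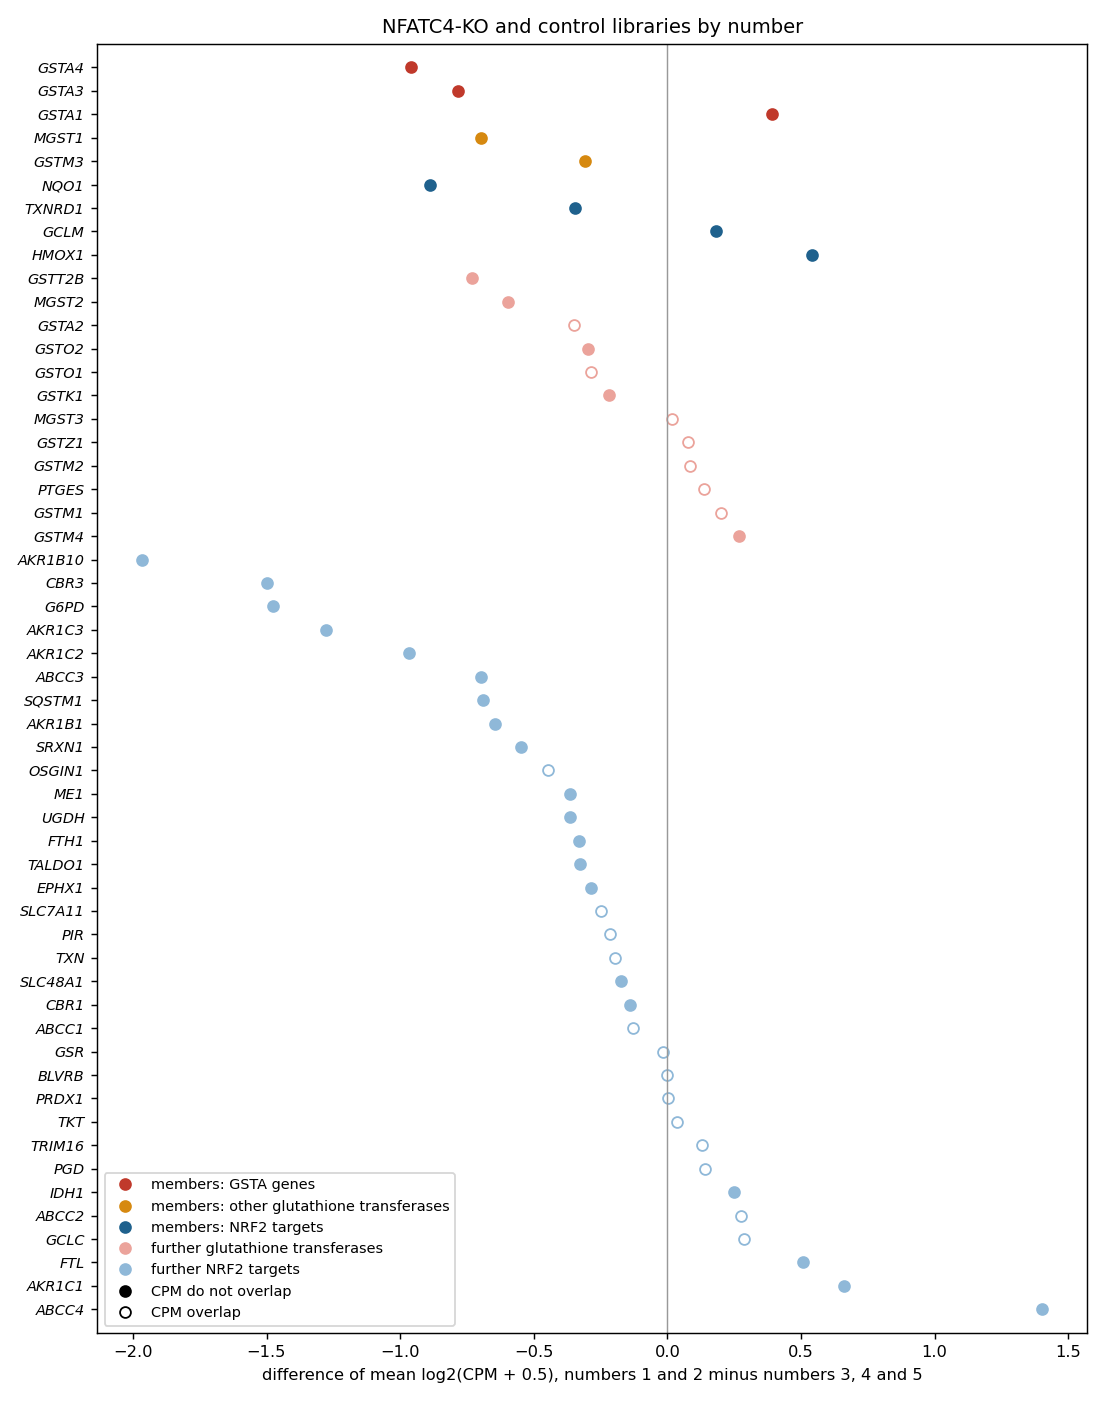
Difference of mean log2(CPM + 0.5), numbers 1 and 2 minus numbers 3, 4 and 5, over libraries labelled NFATC4-KO and control, for the 9 members tested, 12 further glutathione transferases and 33 further NRF2 targets, filled where the CPM of the sets did not overlap. GSTA4, NQO1 and GSTA3 lie between -0.96 and -0.78, GSTA1 at 0.39 and HMOX1 at 0.54.

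Here the alpha class parted again. GSTA1 was higher in numbers 1 and 2, at 206 to 246 CPM, against 157 to 177 CPM in numbers 3, 4 and 5, a log2 difference of 0.39. GSTA3 ran the other way, with 28.8 to 40.1 CPM in numbers 1 and 2, against 49.0 to 67.5 CPM in numbers 3, 4 and 5, a log2 difference of -0.78. GSTA4 was at 49.6 to 62.1 CPM in numbers 1 and 2, against 102 to 114 CPM in numbers 3, 4 and 5, a log2 difference of -0.96. GSTA2 overlapped, with 4.12 to 5.74 CPM in numbers 1 and 2 and 4.89 to 8.34 CPM in numbers 3, 4 and 5. The ratio of GSTA1 to GSTA2 was 38.2 to 50.7 in numbers 1 and 2 and 20.9 to 32.2 in numbers 3, 4 and 5, so here the near copies did not keep 1 ratio.

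Of the transferases outside the alpha class, MGST1 was at 58.5 to 64.7 CPM in numbers 1 and 2, against 95.7 to 112 CPM in numbers 3, 4 and 5, and GSTM3 at 72.1 to 79.4 CPM in numbers 1 and 2, against 81.6 to 104 CPM in numbers 3, 4 and 5. The NRF2 targets split. NQO1 was at 108 to 126 CPM in numbers 1 and 2, against 206 to 246 CPM in numbers 3, 4 and 5, which is 1.85-fold higher in numbers 3, 4 and 5. TXNRD1 was at 347 to 377 CPM in numbers 1 and 2, against 432 to 505 CPM in numbers 3, 4 and 5. GCLM and HMOX1 were instead higher in numbers 1 and 2, GCLM at 94.7 to 97.9 CPM, against 76.2 to 90.4 CPM in numbers 3, 4 and 5, and HMOX1 at 25.3 to 27.3 CPM, against 16.1 to 20.1 CPM in numbers 3, 4 and 5.

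The further lists also held genes in both directions, where 17.3% of all genes were lower and 20.0% higher in numbers 1 and 2 without overlap. Of 33 further NRF2 targets, 16 were lower and 4 higher in numbers 1 and 2 without overlap, with a median log2 difference of -0.22, where the median of all genes was 0.00. AKR1C3 was at 55.5 to 65.0 CPM in numbers 1 and 2, against 115 to 181 CPM in numbers 3, 4 and 5. FTL ran the other way, at 370 to 403 CPM in numbers 1 and 2, against 233 to 319 CPM in numbers 3, 4 and 5. Of 12 further transferases, 4 were lower and 1 higher in numbers 1 and 2. Among 13 regulators 4 were lower and 1 higher, with NFE2L2 at 224 to 229 CPM in numbers 1 and 2, against 239 to 270 CPM in numbers 3, 4 and 5. KEAP1 overlapped, at 107 to 117 CPM in numbers 1 and 2 and 99.2 to 123 CPM in numbers 3, 4 and 5. Of 17 adrenal genes, 8 were higher and 2 lower in numbers 1 and 2, and CYP17A1 was at 115 to 197 CPM there, against 49.1 to 98.4 CPM in numbers 3, 4 and 5.

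Over all 15 libraries, the order of group levels was clear for GSTA1. Mock libraries were highest at 338 to 404 CPM, NFATC4-KO (157 to 246 CPM) and control (174 to 235 CPM) libraries were between and overlapped, and ΔNFATC4 libraries were lowest at 118 to 139 CPM. Mock and control libraries, both without ΔNFATC4, thus differed in GSTA1 more than NFATC4-KO and control libraries did. That difference between transfections was not tested. For GSTA1 the highest library was 3.42 times the lowest. GSTA3, GSTA4 and NQO1 followed at 2.34, 2.30 and 2.28 times, MGST1 and HMOX1 at 1.91 and 1.78 times, and GSTM3, TXNRD1 and GCLM at 1.54, 1.46 and 1.36 times.

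The genes most like GSTA1 were found by the root mean square distance of log2 CPM, each centred on its mean over the 15 libraries, among 11303 genes with a mean of at least 5 CPM. They were MCF2, ROR2, EGLN3, ALDOC and FDFT1, at distances of 0.25 to 0.30. FDFT1, squalene synthase, measured 73.8 to 80.1 CPM in ΔNFATC4 cells and 110 to 134 CPM in mock cells. ALDOC, a glycolytic aldolase, measured 48.1 to 51.8 CPM in ΔNFATC4 cells and 95.1 to 156 CPM in mock cells. For NQO1 the nearest genes were BTG3, ENSG00000249773, CCT6A, BRK1 and TMEM199, at distances of 0.06 to 0.10. BTG3 measured 40.5 to 43.1 CPM in ΔNFATC4 cells and 37.5 to 44.6 CPM in mock cells, and 34.2 to 39.5 CPM in numbers 1 and 2, against 59.8 to 81.1 CPM in numbers 3, 4 and 5. MGST1 was the 12th nearest to NQO1, at 0.11, and GSTA3 the 48th, at 0.14. GSTA3 stood at rank 10395 for GSTA1, at 0.73, so GSTA3 lay nearer to NQO1 than to its alpha class neighbour in these libraries.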

How the data were processed

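RNA-Seq was performed by the authors on TruSeq stranded mRNA libraries. Per the study's methods and the submitters' processing notes, adaptors were removed with fastp, reads were aligned with STAR to GRCh38.p13 (GENCODE release 37) and counted per gene with featureCounts. Each deposited file holds the raw counts of 1 library. Tool versions and multi-mapping settings are not given in the sources used here. Names, positions and lengths were taken from GENCODE release 44, in which 19827 of 21493 gene IDs had a symbol.

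The filterByExpr rule over the 4 groups chose the genes to test. The software was edgeR 4.0.16, DESeq2 1.42.0 and limma 3.58.1 in R 4.3.3. Each comparison was fitted on its own libraries with TMM scaling, edgeR's robust quasi-likelihood test and Benjamini-Hochberg adjustment over the genes tested, with a call at an adjusted p under 0.05. The standard error was derived from the log2 fold change and its F statistic. The test was checked on simulated data. Permutation tests and differences between number sets used log2(CPM + 0.5).

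The members, lists, tests and the rule for named genes were chosen with earlier results of these data known. The rule names the 10 members, up to 4 called genes with the smallest adjusted p in each further list per comparison, the 5 genes nearest to GSTA1 and to NQO1, and NFATC4, NFE2L2, KEAP1, NR5A1 and GSTA2. COL3A1 was named after its values were seen. The listed GSTT1 and SOD2 were not analysed here.

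Alternatives were DESeq2 size factors, no filter, DESeq2's Wald test, a minimum of 50 counts in 3 libraries, limma-voom with quality weights, all 15 libraries in 1 fit, no robust shrinkage, a replicate block, each library left out, and the number set as a term. The MANE transcript length was added after seeing the data. Deviations of same-numbered NFATC4-KO and control libraries from their group means correlated at 0.81, 0.79 and 0.71 for numbers 1, 2 and 3. Different numbers of the same set correlated at 0.69 to 0.80, so these values do not tell pairs by number from the sets. The main fit and the permutation test used no pairs, and the replicate block is given as 1 of the alternatives. Same-numbered ΔNFATC4 and mock libraries correlated at 0.10, -0.09 and 0.04 and were not taken as pairs.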

Additional observations from a re-analysis of the deposited data

Results flagged for a closer look

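GSTM3 in mock replicate 1 stood apart from its group, at 101 CPM, against 83.7 to 85.1 CPM in the other 3 mock libraries. It was the only such library among 120 groups of 4 libraries looked at over the named genes. NFATC4-KO and control groups hold libraries of both number sets, so a gene that differs between sets can hardly be flagged there. A chance rate of about 1 in 20 therefore does not hold over these groups.

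For 5 genes, every NFATC4-KO library lay on one side of every control library in numbers 1 and 2 and on the other side in numbers 3, 4 and 5; the difference between the sets was not tested. On the log2 scale, NFATC4-KO minus control for TXNRD1 was 0.083 in numbers 1 and 2 and -0.12 in numbers 3, 4 and 5. KEAP1 gave -0.11 in numbers 1 and 2 and 0.18 in numbers 3, 4 and 5. EGLN3 gave 0.22 in numbers 1 and 2 and -0.25 in numbers 3, 4 and 5. CCT6A gave 0.10 in numbers 1 and 2 and -0.11 in numbers 3, 4 and 5, and BRK1 gave 0.061 in numbers 1 and 2 and -0.11 in numbers 3, 4 and 5. With 2 libraries per label in each set, a pair of opposite orders needs only small differences.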

How the results depend on the processing

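The fall of GSTA1 and GSTA2 in ΔNFATC4 against mock passed in all 15 alternative fits. The numbers of members without overlap between the number sets, 3 higher and 6 lower in numbers 1 and 2, were the same with DESeq2 size factors and with the 50-count filter. In ΔNFATC4 against mock, the fit of all 15 libraries called 326 genes higher, 204 lower and 1 member lower (GSTA1), against 1082, 871 and 3 in the main fit. Limma-voom called 1351 genes lower and 1 member higher (NQO1). With 1 library left out, 644 to 1342 genes were called higher and 466 to 1229 lower, with 0 to 1 members higher (NQO1, without mock replicate 1) and 2 to 3 lower. In NFATC4-KO against control, where the main fit called 0 genes, DESeq2 called 70 higher and 96 lower, limma-voom 12 and 11, the fit of all 15 libraries 31 and 31, and the number set as a term 587 and 818, with 1 member lower (GSTA3). With 1 library left out, 0 to 1 genes were called higher, the 1 gene without NFATC4-KO replicate 3, and 0 lower. The replicate block called 44 genes higher and 95 lower in NFATC4-KO libraries; beside these it changed no call of a member in either comparison. For single results the cause of a lost or gained call was not tested. Depth limits GSTP1 and GSTA2, which had few counts.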
